A study of Homo sapiens with 24 samples.

Results

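HCT116 cells transfected with the siRNA labelled siCARLo-7 v2 were compared directly with HCT116 cells transfected with the siRNA labelled siCARLo-5, without the control siRNA group. The comparison used 6 of the 24 libraries of the series, chosen by their titles, with 3 libraries in each group. Every endogenous probe of the panel was read, 189 in all, and 174 of them passed the background filter and were tested. HCT116 is an established line from a human colorectal carcinoma and is widely used in cell cycle work. Per the labels, both groups were grown with 5% CO2, received siRNA at 50 nM with Lipofectamine RNAiMAX, and gave total RNA extracted with TRIZOL. The siRNAs target CARLos, long non-coding RNAs of the chromosomal region 8q24.21, and the labels do not say what v2 stands for. The nCounter assay hybridises a coloured barcode to each RNA and counts the barcodes directly, without amplification. No probe on the panel was named for a CARLo transcript, so the extent of either knockdown was not measured here. Nothing in the labels says that the 3 libraries of a group were cultured separately, and the p-values then reflect only how far these samples spread, which may be technical. Because RNA was taken from whole cultures, fewer cells in a phase of the cycle and less RNA per cell cannot be told apart.

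A dividing cell licenses its origins in G1, when ORC and CDC6 load the MCM helicase. Cyclin E with CDK2 then releases E2F factors from the pocket proteins, which turns on the genes of DNA synthesis. Cyclin B with CDK1, switched on by CDC25 phosphatases and PLK1, drives mitosis, while CDK inhibitors such as CDKN1A hold the cycle back after damage.

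The 6 libraries held between 108874 and 175266 endogenous counts. The siCARLo-5 libraries held 128465, 167775 and 175266, and the siCARLo-7 v2 libraries 125751, 108874 and 114532. Background, taken in each library as its negative probe mean plus 2 SD, lay between 7.19 and 16.1 counts. Endogenous counts per positive control count averaged 8.59 ± 0.317 (SD, n = 3) after siCARLo-5 and 9.79 ± 0.422 (SD, n = 3) after siCARLo-7 v2. The ratio of positive probe A to positive probe B, which are added at fixed amounts, was 2.37 ± 0.0663 and 2.90 ± 0.0129 in the same order. Each of these measures gave a two-sided exact permutation p of 0.1 between the groups, the smallest that 3 against 3 libraries allow. The positive probes therefore differed between the groups together with the genes, and their part in the results was not tested. In the authors' series-wide table the positive controls of the 6 libraries sum to 16033 or 16034. Replicates differed from each other by more than counting noise, with a chi-square per degree of freedom of 2.09 to 4.6.

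Of the 174 genes tested, 92 (52.9%) were called different at an adjusted p under 0.05 by edgeR's quasi-likelihood test with Benjamini-Hochberg adjustment. After siCARLo-7 v2, 45 genes (25.9%) were higher and 47 (27%) were lower than after siCARLo-5. Differences reached 1.5-fold for 44 called genes (25.3%), 25 of them higher and 19 lower. The log2 fold changes, given throughout as siCARLo-7 v2 over siCARLo-5, ran from -1.32 for CDC25C to 1.53 for POLE2, leaving out DTX4, with a median of 0.04 over all genes tested. DTX4 passed the background filter through its siCARLo-5 libraries alone and so had to be lower. Without it 46 genes were lower, 18 of them by at least 1.5-fold. TGFB3, for which the siCARLo-5 libraries alone met the filter, is still in these counts. In 108 genes (62.1%) the 3 libraries of one group did not overlap the 3 of the other, and 91 of these were among the called genes. CDKN1C was the called gene whose groups overlapped.

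The division into higher and lower genes depended on how libraries were scaled. TMM scaling over the panel, which was used for the values given here, sets differences relative to the bulk of the panel. Scaling by the positive control sum moved the median of all genes to 0.45 and gave 104 higher and 15 lower genes. Scaling by 6 reference genes gave 93 higher and 24 lower genes with a median of 0.32, and upper-quartile scaling gave 32 higher and 61 lower genes with a median of -0.10. Under the 8 alternative scalings tried, 31 of the 45 higher genes and 11 of the 47 lower genes kept their call each time. Below, these are called held genes, and the 11 become 10 without DTX4. DESeq2 and limma on the series-wide table, counted among the 8, also changed the test, so a call could be lost through the test. ATR was at 0.88 with DESeq2 and 0.90 with TMM, but DESeq2 did not call it (adjusted p 0.063). The alternatives were not balanced in direction, since the median moved up as far as 0.55 but down only to -0.10. The series-wide table, with a median of 0.44, nearly repeats the positive control sum. A lower call was thus harder to keep than a higher one, and 31 against 11 does not compare their strength.

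**Figure D1:**
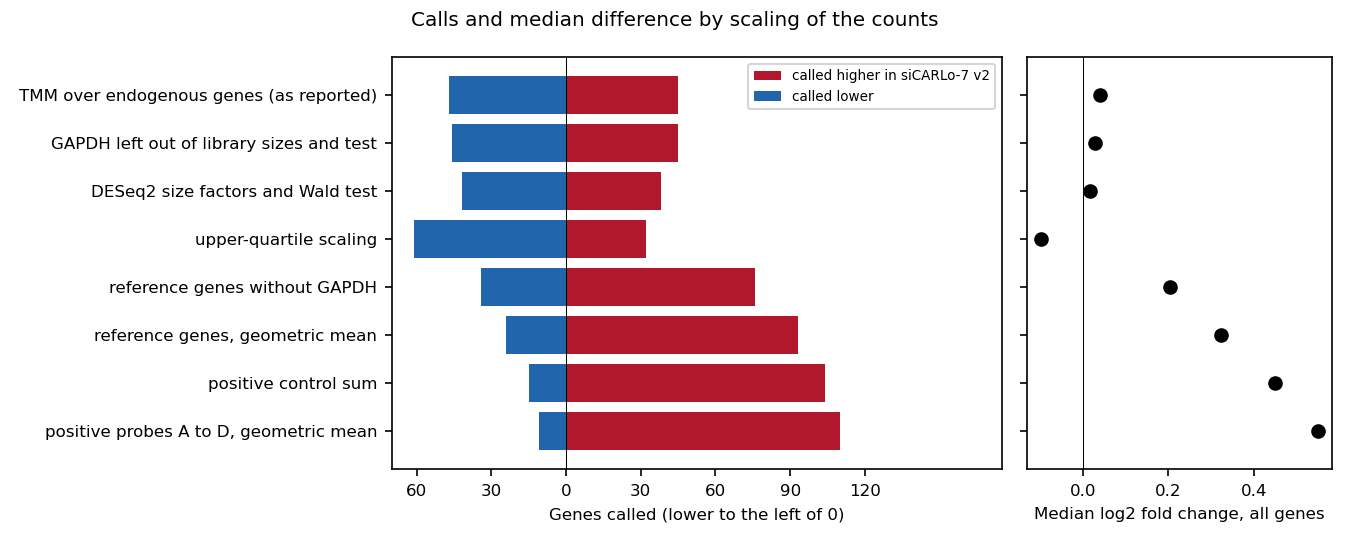
Genes called at an adjusted p under 0.05 (left, bars; genes lower after siCARLo-7 v2 extend to the left of 0) and the median log2 fold change of all genes tested (right, points) for TMM and 7 other ways of scaling the 6 libraries. The higher calls range from 32 with upper-quartile scaling to 110 with the geometric mean of positive probes A to D, and the median from -0.10 to 0.55. The DESeq2 alternative also changed the test.

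POLE2, PCNA and CDC6, which act in DNA replication, had the 3 highest log2 fold changes on the panel. Of the 14 genes of the list of origin recognition, origin firing and the replication fork, all of them tested, 8 were higher after siCARLo-7 v2, 0 were lower and 6 were not called. The list's median log2 fold change was 0.41, against 0.04 for all genes tested, of which 25.9% were higher. Under the alternative scalings in the plot of calls by scaling, between 7 and 14 of the 14 were called higher and 0 lower. The same scalings called from 32 to 110 of all genes tested higher. The list was written with earlier results of these data known, so its counts are descriptions and not a test. RPA1 and RPA2, subunits of the single-strand binding protein at the fork, were not in the list and are named here after their values were seen. With TMM both were called lower, at -0.52 (SE 0.06, edgeR adjusted p 1.1e-05) and -0.39 (SE 0.11, edgeR adjusted p 0.009), and with the positive control sum they were at -0.11 and 0.015 and not called.

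POLE2 encodes a small subunit of DNA polymerase epsilon, the leading-strand polymerase. Its normalized counts were 108.4, 111.1 and 99.7 after siCARLo-5, and 279.4, 291.3 and 347 after siCARLo-7 v2. All 3 siCARLo-7 v2 libraries lay above all 3 siCARLo-5 libraries, a 2.88-fold difference (log2 1.53, SE 0.11, edgeR adjusted p 4.9e-07). PCNA, the sliding clamp that holds polymerases on DNA, stood at 196.3, 236.2 and 175.6 after siCARLo-5. After siCARLo-7 v2 its counts were 462.3, 421.7 and 476.6, again without overlap (2.24-fold, log2 1.16, SE 0.10, edgeR adjusted p 2.8e-06). CDC6 loads the MCM helicase at origins. Its counts of 356.1, 370.2 and 337.9 after siCARLo-5 stood against 693, 722.3 and 753 after siCARLo-7 v2 (2.04-fold, log2 1.03, SE 0.07, edgeR adjusted p 2.6e-07). DBF4, the activating subunit of the CDC7 kinase that fires origins, had counts of 180.3, 133.1 and 206.9 against 341.4, 288.9 and 341.7. The DBF4 groups did not overlap either, and the difference was 1.87-fold (log2 0.90, SE 0.14, edgeR adjusted p 0.00017). ORC6 of the origin recognition complex differed by 0.65 (SE 0.08), CDC45 of the active helicase by 0.58 (SE 0.11), ORC3 by 0.41 (SE 0.12) and the primase subunit PRIM1 by 0.41 (SE 0.09) on the log2 scale. Of the 8 called genes 7 were held genes, the exception being ORC3, which lost its call without siCARLo-7 v2 replicate 1 (edgeR adjusted p 0.058). CDC7, the partner of DBF4, was at 0.27 (SE 0.15, edgeR adjusted p 0.14), and ORC1, ORC2, ORC4, ORC5 and POLE lay between 0.12 and 0.33 without being called.

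**Figure D2:**
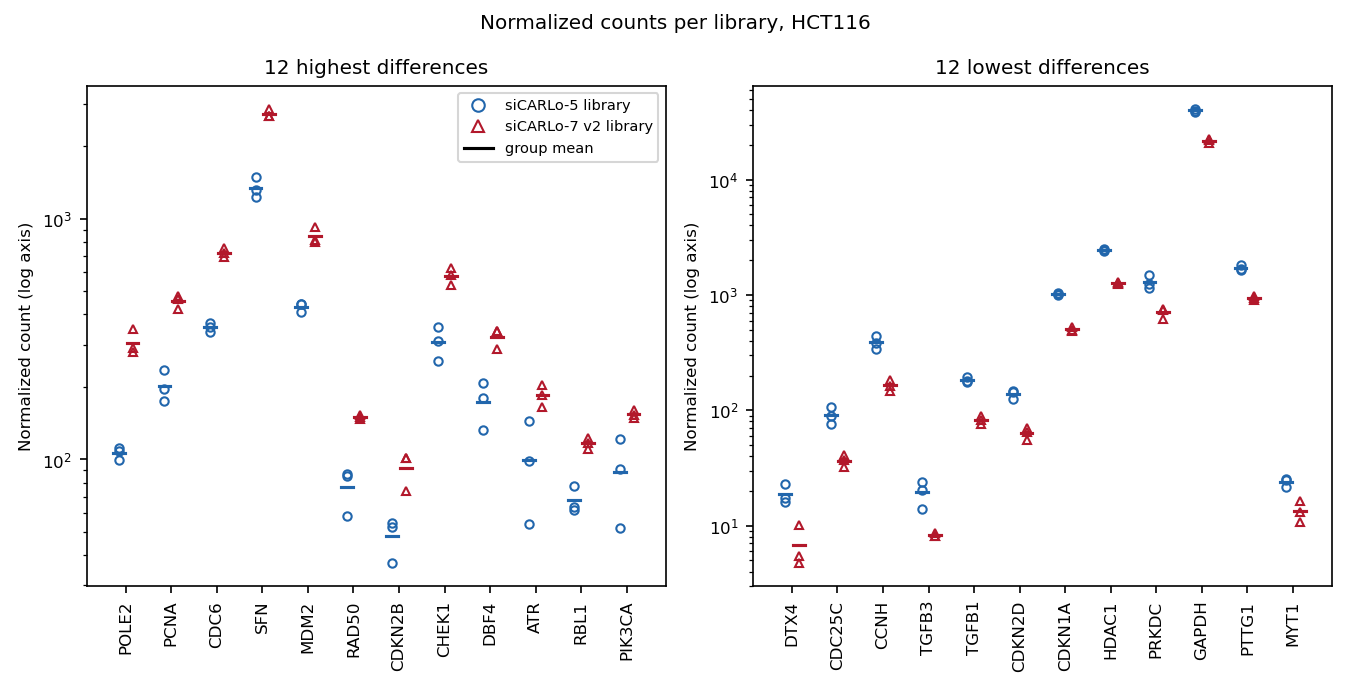
Normalized counts (log axis) in each of the 6 libraries for the 12 called genes with the highest log2 fold change (left) and the 12 with the lowest (right), with siCARLo-5 libraries as circles, siCARLo-7 v2 libraries as triangles and bars at group means. The siCARLo-7 v2 libraries of POLE2 lie between 279.4 and 347 and its siCARLo-5 libraries between 99.7 and 111.1, while the siCARLo-5 libraries of ATR spread from 53.8 to 145.1. DTX4 and TGFB3 are plotted on the right although their siCARLo-5 libraries alone met the background filter.

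The promoters of POLE2, PCNA and CDC6 are shown as those of the replication genes with the 3 highest differences, since E2F factors are known to regulate many genes of DNA synthesis. The letters are the 250 bases before the RefSeq start of each gene (RefSeq, GRCh38.p14), with matches on either strand in capitals. The E2F motif was searched as TTTCCCGC, TTTCGCGC, TTTGGCGC and TTTGCCGC, the CHR motif of late cell cycle genes as TTTGAA and TTCGAA, and the CCAAT box as CCAAT, each on both strands.
POLE2 promoter, chr14:49688215-49688464, minus strand: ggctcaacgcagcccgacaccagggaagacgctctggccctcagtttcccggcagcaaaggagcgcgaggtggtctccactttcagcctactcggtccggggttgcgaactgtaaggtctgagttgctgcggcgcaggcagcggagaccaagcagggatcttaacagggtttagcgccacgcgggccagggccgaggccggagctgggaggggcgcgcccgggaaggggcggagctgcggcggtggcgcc
PCNA promoter, chr20:5126623-5126872, minus strand: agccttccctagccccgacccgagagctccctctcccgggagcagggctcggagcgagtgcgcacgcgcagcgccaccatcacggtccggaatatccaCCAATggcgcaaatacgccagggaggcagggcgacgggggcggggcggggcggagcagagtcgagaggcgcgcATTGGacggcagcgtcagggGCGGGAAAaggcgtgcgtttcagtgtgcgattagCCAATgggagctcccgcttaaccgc
CDC6 promoter, chr17:40287629-40287878, plus strand: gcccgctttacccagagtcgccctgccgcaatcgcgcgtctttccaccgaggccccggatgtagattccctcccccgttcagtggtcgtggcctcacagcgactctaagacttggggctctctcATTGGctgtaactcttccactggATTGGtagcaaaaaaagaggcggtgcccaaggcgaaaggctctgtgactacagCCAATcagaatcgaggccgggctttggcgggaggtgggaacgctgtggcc
The POLE2 stretch holds 0 matches to any of the 3 motifs. The PCNA stretch holds 1 E2F match, 59 bases before the start, and 3 CCAAT boxes. The CDC6 stretch holds 3 CCAAT boxes, and the letters searched for E2F are not in this window. It does hold TTTGGCGG, and the POLE2 stretch holds TTTCCCGG, each differing from a searched spelling in the last letter only. The lack of a match therefore does not show that an E2F site is absent. Among 35097 promoters of the same length, 2.79% hold an E2F match, 14.3% a CHR match and 32% a CCAAT box. Of the 39 higher genes with a promoter in the table, 7 hold an E2F match, compared with 4 of the 42 lower genes and 9 of the 70 genes not called. These are matches of letters, not mapped sites.

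The MCM helicase, which unwinds DNA ahead of the polymerases, gave calls that depended on the scaling. With TMM, of its 6 subunits MCM6 and MCM5 were higher, MCM3 was lower and 3 were not called, with a list median of 0.12. All 6 were called higher with the positive control sum (median 0.53) and 5 with the reference genes (median 0.41). These scalings called 104 and 93 of all 174 genes higher, while TMM called 45 higher and 47 lower. MCM6 averaged 493 ± 18.5 (SD, n = 3) after siCARLo-5 and 642 ± 25.2 (SD, n = 3) after siCARLo-7 v2 (log2 0.38, SE 0.06, edgeR adjusted p 0.00031), and it was the MCM gene among the held genes. MCM3 was at -0.19 (SE 0.07, edgeR adjusted p 0.032) with TMM but at 0.22 with the positive control sum, so its direction depended on the scaling. MCM3 lost its call without siCARLo-7 v2 replicate 1 or replicate 3, and MCM5 without either of these or without siCARLo-5 replicate 1 (edgeR adjusted p 0.17 in the last case).

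Checkpoint and repair genes were mostly higher after siCARLo-7 v2. Of the genes of the DNA damage checkpoint and break repair list that are reported here, 5 were higher, 1 was lower and 1 was not called. Among all genes tested 25.9% were higher and 27% lower. CHEK1 encodes the kinase that slows the cycle when forks stall. Its counts were 354.9, 255.6 and 310.7 after siCARLo-5 and 586.3, 531.3 and 622.3 after siCARLo-7 v2, with no overlap (1.90-fold, log2 0.93, SE 0.11, edgeR adjusted p 2e-05). RAD50 and MRE11A belong to the complex that binds broken DNA ends. RAD50 stood at 85.6, 58.2 and 87.4 against 152.4, 146.8 and 149.9 (log2 0.96, SE 0.15, edgeR adjusted p 0.00018), and MRE11A differed by 0.71 (SE 0.15). BRCA1, which promotes homologous recombination, averaged 66.9 ± 10.3 (SD, n = 3) against 107 ± 15.2 (SD, n = 3) (log2 0.69, SE 0.16, edgeR adjusted p 0.0027). CHEK1, RAD50, MRE11A and BRCA1 were held genes.

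ATR, the kinase upstream of CHEK1, rested on less even libraries. Its counts were 98.2, 53.8 and 145.1 after siCARLo-5 and 186, 165.4 and 204.6 after siCARLo-7 v2 (log2 0.90, SE 0.25, edgeR adjusted p 0.0097). The low library was siCARLo-5 replicate 2, without which the log2 difference was 0.53. That library was also the lowest of its group for CHEK1, RAD50, MRE11A and DBF4, but the highest for POLE2, PCNA and CDC6. Without it the median of the replication list was 0.298, with 8 of its 14 genes called higher. PIK3CA, the catalytic subunit of PI3 kinase, was low in the same library, with 91.3, 52 and 122 counts against 152.4, 149.1 and 160.7 (log2 0.80, SE 0.22, edgeR adjusted p 0.0097), and without that library its difference was 0.46. ATR lost its call without siCARLo-7 v2 replicate 3 (edgeR adjusted p 0.065), as did PIK3CA (edgeR adjusted p 0.056). DESeq2 did not call ATR either (adjusted p 0.063). PRKDC, the kinase of DNA end joining, went the other way from the rest of the list. It was counted at 1502, 1244.7 and 1143.1 after siCARLo-5 and at 759, 741 and 618 after siCARLo-7 v2 (1.83-fold lower, log2 -0.87, SE 0.10, edgeR adjusted p 2.5e-05), a held gene. CHEK2 was not called with TMM (log2 0.18, SE 0.10) but was called higher at 0.59 with the positive control sum. ATM lay under background in all 6 libraries.

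With TMM, of 7 tested G1 cyclins and their CDKs, 2 were higher, 1 was lower and 4 were not called, with a median of 0.25. Scaling by the positive control sum gave 5 higher and 0 lower (median 0.655), CCNE2, CDK2 and CDK6 being among the higher. Over the whole panel that scaling called 104 of 174 genes higher, while TMM called 45 higher and 47 lower. CCNE1, the cyclin E that activates CDK2, had counts of 143.8, 159.6 and 159.9 against 250, 263.3 and 204.6 without overlap (1.54-fold, log2 0.62, SE 0.11, edgeR adjusted p 0.00049), a held gene. CCND1, a cyclin D that starts the phosphorylation of RB1, differed by 0.25 (SE 0.05, edgeR adjusted p 0.0013). Its kinase partner CDK4 was at -0.38 (SE 0.06, edgeR adjusted p 0.00034) with TMM and at 0.028 with the positive control sum. CCNE2, CCND3, CDK2 and CDK6 were not called. CCNE2 (without siCARLo-5 replicate 3 or siCARLo-7 v2 replicate 2) and CDK6 (without siCARLo-5 replicate 3) were called higher, and CCND3 lower without siCARLo-7 v2 replicate 3.

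Among the pocket proteins and E2F factors, with TMM, the pocket proteins were higher and some of the factors lower. All 3 pocket proteins were called higher: RBL1 at 0.80 (SE 0.13), RB1 at 0.61 (SE 0.10) and RBL2 at 0.31 (SE 0.11), the first pair being held genes. RBL1 counts were 77.6, 61.7 and 63.5 after siCARLo-5 and 116.9, 110.7 and 123.2 after siCARLo-7 v2 (edgeR adjusted p 0.00031). E2F3, an activating factor, had counts of 197.4, 158.7 and 178 against 110.8, 118.8 and 90 (log2 -0.74, SE 0.13, edgeR adjusted p 0.00049). E2F4, which represses together with RBL1 and RBL2, was at -0.59 (SE 0.07, edgeR adjusted p 1.9e-05), and the dimer partner TFDP2 at -0.40 (SE 0.11). The E2F3 and E2F4 differences were -0.24 and -0.084 with the geometric mean of positive probes A to D and not called there. E2F1, the best known activator of S-phase genes, was not called (log2 0.10, SE 0.13, edgeR adjusted p 0.55). Among all genes tested 25.9% were higher and 27% lower with TMM, with a median of 0.04. Over the 11 tested genes of the list, 3 were higher, 3 lower and 5 not called with TMM, close to those shares. The list's median was 0.05. On the scale of the positive control sum 8 were higher and 1 lower (median 0.46), E2F1, E2F2, E2F5, E2F6 and TFDP1 joining the higher genes and TFDP2 turning to 0.006. On that scale 104 of all 174 genes were higher. RBL2 lost its call without siCARLo-5 replicate 1 or 3 or siCARLo-7 v2 replicate 1 or 2, with edgeR adjusted p from 0.091 to 0.14, and TFDP2 lost it without siCARLo-7 v2 replicate 2 or 3.

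CDK inhibitors changed in opposite directions. Of 7 tested, CDKN2B was higher, CDKN1A, CDKN2D and CDKN1C were lower, and CDKN1B, CDKN2A and CDKN2C were not called with TMM. The positive control sum gave 2 higher and 2 lower. Among all genes tested, TMM gave 25.9% higher and 27% lower, and the positive control sum 104 of 174 higher and 15 lower. CDKN1A encodes p21, an inhibitor of cyclin-dependent kinases that arrests the cycle. Its counts were 994.1, 1029.6 and 1016.2 after siCARLo-5, and 526.4, 490.5 and 501.3 after siCARLo-7 v2. The libraries of each group lay close together and the groups far apart (log2 -1.00, SE 0.06, edgeR adjusted p 1.5e-07). CDKN2D and CDKN2B both encode INK4 proteins, which block CDK4 and CDK6. CDKN2D stood at 143.8, 148.1 and 125.3 against 70.1, 65.2 and 55.7 (log2 -1.12, SE 0.14, edgeR adjusted p 2.9e-05), whereas CDKN2B stood at 52.5, 37 and 54.4 against 101.6, 101.4 and 73.9 (log2 0.95, SE 0.19, edgeR adjusted p 0.001). CDKN1A, CDKN2D and CDKN2B were held genes. CDKN1C lost its call without siCARLo-5 replicate 3, without siCARLo-7 v2 replicate 1 or without siCARLo-7 v2 replicate 3, and its sign turned to 0.064 with the geometric mean of positive probes A to D. CDKN1B, which encodes p27, was at 0.13 with TMM (SE 0.17, edgeR adjusted p 0.53). With the positive control sum CDKN1B was called higher at 0.54 (edgeR adjusted p 0.0081).

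The damage-induced genes MDM2, SFN and GADD45A were higher after siCARLo-7 v2. MDM2 encodes a ubiquitin ligase that is induced after DNA damage. Its counts were 409.7, 440.8 and 441.8 after siCARLo-5 and 921.6, 799.2 and 816.2 after siCARLo-7 v2 (1.96-fold, log2 0.97, SE 0.07, edgeR adjusted p 4.9e-07). SFN, the 14-3-3 sigma protein that keeps CDK1 out of the nucleus after damage, stood at 1234.9, 1490.7 and 1312.9 against 2664.3, 2861.4 and 2671.2 (2.03-fold, log2 1.02, SE 0.07, edgeR adjusted p 3.1e-07). GADD45A, another damage-induced gene, had 749.8, 661.1 and 648.6 counts against 1172.6, 1183.7 and 1100 (log2 0.75, SE 0.07, edgeR adjusted p 2.8e-06). In all 3 genes every siCARLo-7 v2 library lay above every siCARLo-5 library, and all 3 were held genes. CDKN1A ran opposite to them, as given above, and the cyclin G gene CCNG2 was lower by a log2 value of -0.68 (SE 0.12).

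Within mitotic entry, the kinase CDK1 and its cyclins differed in opposite directions. CDK1 had counts of 1063.7, 879.8 and 974.2 after siCARLo-5 and 1692.9, 1431.8 and 1662.3 after siCARLo-7 v2 (1.64-fold, log2 0.72, SE 0.08, edgeR adjusted p 1.9e-05). CCNB1, its cyclin B1 partner, had 2097.7, 2193.2 and 2047.3 counts against 1489.6, 1414.4 and 1389.2 (log2 -0.56, SE 0.05, edgeR adjusted p 4.2e-06). CCNB2 stood at 828.6, 837.5 and 789.6 against 478.6, 456.7 and 450.9 (1.77-fold lower, log2 -0.82, SE 0.06, edgeR adjusted p 4.9e-07). None of these groups overlapped. CDC25C, the phosphatase that activates CDK1 at mitosis, was among the lowest differences of the panel. Its counts were 76.5, 107.5 and 89 against 40.6, 37.3 and 32.1 (2.49-fold lower, log2 -1.32, SE 0.18, edgeR adjusted p 6.2e-05). CDK1, CCNB2 and CDC25C were held genes. CCNB1 was not called with the positive control sum (log2 -0.15, edgeR adjusted p 0.075).

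The other mitotic regulators were closer together. PLK1 was at -0.32 (SE 0.07, edgeR adjusted p 0.0017) with TMM and at 0.086 with the positive control sum. CDC25A was at -0.51 (SE 0.15) and CDC25B at 0.21 (SE 0.08), both called on all 6 libraries. CCNA2 was not called with TMM (log2 0.02, SE 0.07, edgeR adjusted p 0.77) but was called higher at 0.43 with the positive control sum. Of 10 tested genes of the mitotic list, 2 were higher, 5 lower and 3 not called, while 27% of all genes tested were lower. The list's median was -0.40 with TMM, but 0.10 with the geometric mean of positive probes A to D. CDC25B lost its call without any of the libraries other than siCARLo-7 v2 replicate 1, and CDC25A without siCARLo-7 v2 replicate 1 or 2.

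PTTG1, the securin that blocks separase until anaphase, was lower as well. Its counts were 1635.5, 1823 and 1685.5 after siCARLo-5 and 970.4, 948.4 and 911.5 after siCARLo-7 v2 (1.82-fold lower, log2 -0.86, SE 0.06, edgeR adjusted p 3.1e-07), a held gene. PTTG2, at -0.54 (SE 0.07), is nearly identical in sequence to PTTG1, so which of the pair each probe counted is uncertain. Separase itself, ESPL1, and the cohesin subunit SMC1A were not called with TMM, although ESPL1 was called lower without siCARLo-5 replicate 3 (edgeR adjusted p 0.048). With the positive control sum SMC1A was called higher at 0.49 (edgeR adjusted p 0.0017).

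The promoters of CDC25C, PTTG1 and CCNB2 are shown beside those of the replication genes, as the 3 genes of the mitotic and securin lists with the lowest differences. They come from the same RefSeq table and are marked in the same way.
CDC25C promoter, chr5:138338356-138338605, minus strand: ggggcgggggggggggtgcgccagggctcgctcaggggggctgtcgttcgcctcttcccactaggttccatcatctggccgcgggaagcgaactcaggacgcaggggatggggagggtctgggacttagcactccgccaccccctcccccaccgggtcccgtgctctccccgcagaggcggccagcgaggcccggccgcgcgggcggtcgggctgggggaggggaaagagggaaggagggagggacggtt
CCNB2 promoter, chr15:59104896-59105145, plus strand: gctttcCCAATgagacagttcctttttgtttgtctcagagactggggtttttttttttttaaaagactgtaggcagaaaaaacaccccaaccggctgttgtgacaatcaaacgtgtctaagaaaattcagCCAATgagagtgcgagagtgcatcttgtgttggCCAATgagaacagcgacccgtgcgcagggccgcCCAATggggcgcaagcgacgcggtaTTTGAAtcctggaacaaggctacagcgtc
PTTG1 promoter, chr5:160421605-160421854, plus strand: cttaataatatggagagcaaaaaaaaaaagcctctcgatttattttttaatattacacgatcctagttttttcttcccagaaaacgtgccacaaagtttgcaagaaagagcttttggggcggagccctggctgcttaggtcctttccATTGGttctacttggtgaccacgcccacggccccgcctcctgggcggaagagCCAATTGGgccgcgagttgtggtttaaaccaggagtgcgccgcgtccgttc
The CDC25C stretch holds 0 matches. The CCNB2 stretch holds 4 CCAAT boxes and a CHR match 29 bases before the start, and the PTTG1 stretch holds 3 CCAAT matches, of which a pair on opposite strands overlap. A CHR match was found for 6 of the 42 lower genes, compared with 4 of the 39 higher genes and with 5 of the 70 genes not called. The share in the lower genes, 14.3%, is that of all 35097 promoters. CCAAT boxes were found in 19 of the 42, 19 of the 39 and 27 of the 70 in the same order. Neither motif was confined to genes of one direction.

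The spindle assembly checkpoint delays anaphase until chromosomes are attached. It had 3 of 6 tested genes higher, 0 lower and 3 not called with TMM, with a median of 0.22, and all 6 higher with the positive control sum. Of all 174 genes, 45 and 104 were higher in the same order. MAD2L1, which inhibits the APC/C, had counts of 699.6, 531.6 and 582.7 against 875.9, 962.3 and 1029.3 (log2 0.67, SE 0.10, edgeR adjusted p 9.9e-05). BUB3 was at 0.35 (SE 0.05) and BUB1B at 0.33 (SE 0.10), and BUB1 was not called. MAD2L1 and BUB3 were held genes, whereas BUB1B lost its call without siCARLo-5 replicate 3 (edgeR adjusted p 0.061) or siCARLo-7 v2 replicate 1 (edgeR adjusted p 0.058).

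The ubiquitin ligases of the cycle had calls in both directions. Among 12 APC/C genes, ANAPC5 (log2 0.50, SE 0.06), CDC16 (log2 0.34, SE 0.08) and ANAPC1 (log2 0.27, SE 0.06) were higher, the activator FZR1 was lower (log2 -0.31, SE 0.10), and 8 were not called with TMM, the activator CDC20 among them. The positive control sum gave 8 higher and 0 lower APC/C genes. Of all 174 genes tested, 45 were higher with TMM and 104 with the positive control sum, so neither APC/C count stands out. FZR1 turned to 0.091 with the positive control sum and was not called without siCARLo-7 v2 replicate 1 (edgeR adjusted p 0.058). SKP2, the SCF subunit that marks p27 for destruction, stood at 224.8, 222.1 and 217.6 against 142.3, 134 and 133.9 (log2 -0.69, SE 0.09, edgeR adjusted p 5.1e-05). FBXW7, which marks cyclin E, was at 0.45 (SE 0.12), the scaffold CUL1 at 0.32 (SE 0.07) and the RING subunit RBX1 at -0.36 (SE 0.06). RBX1 turned to 0.046 with the positive control sum, and SKP2 was not called with the geometric mean of positive probes A to D (log2 -0.19, edgeR adjusted p 0.27).

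The 3 genes of the CDK-activating kinase, which also belongs to the transcription factor TFIIH, came apart. CCNH, its cyclin, had counts of 442.8, 340.3 and 384.1 after siCARLo-5 and 147.3, 181.7 and 163.9 after siCARLo-7 v2. The groups were far from overlapping, a 2.36-fold difference downward (log2 -1.24, SE 0.11, edgeR adjusted p 3.3e-06), and CCNH was a held gene. CDK7 (log2 0.09, SE 0.07) and MNAT1 (log2 0.02, SE 0.09) were not called with TMM, and with the positive control sum they were higher by 0.49 and 0.43.

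Histone deacetylases, which compact chromatin and act with pocket proteins as repressors, were mostly lower. Of 7 tested, 6 were lower, 0 higher and 1 not called, with a median of -0.57, while 27% of all genes tested were lower. HDAC1 gave the smallest p of the panel, with counts of 2397.9, 2512.4 and 2452.8 after siCARLo-5 and 1271.2, 1295.5 and 1242.4 after siCARLo-7 v2 (1.93-fold lower, log2 -0.95, SE 0.05, edgeR adjusted p 1.1e-07). HDAC4 was at -0.74 (SE 0.14), HDAC6 at -0.58 (SE 0.11), HDAC5 at -0.57 (SE 0.16), HDAC8 at -0.44 (SE 0.13) and HDAC3 at -0.25 (SE 0.09). HDAC2, the closest relative of HDAC1, was not called with TMM (log2 0.16, SE 0.07), but was called higher without siCARLo-5 replicate 1 (edgeR adjusted p 0.02). With the positive control sum HDAC2 was called higher at 0.57 (edgeR adjusted p 1.2e-06). HDAC3 lost its call without siCARLo-5 replicate 3 or any siCARLo-7 v2 library, and HDAC8 without siCARLo-7 v2 replicate 3. HDAC1 was the held gene of this list, and with the positive control sum 1 gene of the 7 was lower and 1 higher, and HDAC3 turned to 0.16.

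The other 14-3-3 proteins, adaptors that bind phosphorylated partners, were called lower or not called with TMM. YWHAG (log2 -0.55, SE 0.05), YWHAE (log2 -0.36, SE 0.05) and YWHAQ (log2 -0.23, SE 0.05) were lower, and YWHAB, YWHAH and YWHAZ were not called. With the positive control sum YWHAE and YWHAQ turned to 0.042 and 0.18, YWHAG was not called, and YWHAB, YWHAH and YWHAZ were called higher at 0.42, 0.45 and 0.52. Under that scaling 5 of the 7 genes of the list, SFN included, were higher and 0 lower, while 104 of all 174 genes were higher and 15 lower.

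Among signalling genes, TGFB1, the ligand that arrests epithelial cells through SMADs, had counts of 195.2, 180.7 and 176.4 against 89.4, 82.7 and 76 (2.21-fold lower, log2 -1.15, SE 0.11, edgeR adjusted p 5.7e-06), a held gene. TGFB3 was also called lower, at counts of 24, 20.3 and 14 against 8.1, 8.2 and 8.6. It lay above background in 4 of the 6 libraries, those of siCARLo-5 and siCARLo-7 v2 replicate 3. The siCARLo-5 libraries alone met the filter, so a lower value was favoured in advance. Its fold and test are therefore not given, and TGFB3 was not a held gene. SMAD4 was at 0.26 (SE 0.08, edgeR adjusted p 0.013) and lost its call without siCARLo-5 replicate 3 or siCARLo-7 v2 replicate 2. SMAD2, SMAD3 and TGFB2 were not called with TMM, and SMAD2 became called higher without siCARLo-5 replicate 3 (edgeR adjusted p 0.0064). With the positive control sum SMAD2 and SMAD3 were called higher at 0.79 and 0.45. NFKBIA, the inhibitor that holds NF-kappaB in the cytoplasm, stood at 450.8, 501.6 and 497 against 759, 809.7 and 669.4 (1.54-fold, log2 0.62, SE 0.08, edgeR adjusted p 4.3e-05), a held gene. NFKB1 and RELA were not called with TMM. With the positive control sum NFKB1 was called higher at 0.62 (edgeR adjusted p 5.7e-05). All 3 of these genes were called higher with the geometric mean of positive probes A to D. JUN, an AP-1 subunit, was at 0.58 (SE 0.17, edgeR adjusted p 0.011) and lost its call without siCARLo-5 replicate 1, siCARLo-7 v2 replicate 2 or siCARLo-7 v2 replicate 3. MYC, the protein-coding neighbour of the CARLo transcripts, had counts of 2127.4, 2064.5 and 1892.3 against 2002.8, 1932.8 and 1852.9, which overlapped. It was not called with TMM (log2 -0.07, SE 0.06, edgeR adjusted p 0.32) and was called higher at 0.34 with the positive control sum. Without siCARLo-5 replicate 3 it was called lower at -0.15 (edgeR adjusted p 0.04), so no direction can be given.

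DTX4, a ubiquitin ligase of the Deltex family, had few counts. It stood at 22.8, 15.9 and 17.3 after siCARLo-5, above background in each, and at 10.2, 4.7 and 5.4 after siCARLo-7 v2, under background in each. Its fold and test are therefore not given. It was the 1 gene above background in all 3 libraries of one group and 0 of the other. MYT1, at -0.85 (SE 0.24), also lay under 26 counts in every library. Among the 15 genes that were not tested were ATM, CCNA1, CCND2, CDC14C, CREB3L1, CREB3L3, GADD45G, PRB1, RPA3, SHH, TBX2, TWIST1, UBE2M and WEE1, with raw counts from 0 to 15 in the 6 libraries.

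Reference genes were not constant between the groups. GAPDH, a glycolytic enzyme, took 27.2% ± 0.683 (SD, n = 3) of endogenous counts after siCARLo-5 and 17.3% ± 0.411 (SD, n = 3) after siCARLo-7 v2. Its normalized counts were 38812, 41127 and 39538 against 22016, 22568 and 20843 (1.83-fold lower, log2 -0.87, SE 0.05, edgeR adjusted p 2.1e-07), a held gene. PGK1, of the same pathway, was at -0.48 (SE 0.06), and CLTC, GUSB, HPRT1 and TUBB were not called with TMM. With the positive control sum CLTC and TUBB were higher by 0.28 each and HPRT1 by 0.36, but CLTC and TUBB were called lower with TMM without siCARLo-5 replicate 3, as TUBB was without siCARLo-5 replicate 1. Leaving GAPDH out of the library sizes and the test gave 45 higher and 46 lower genes.

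The epithelial markers chosen for the line were present. CDH1, the adhesion protein E-cadherin, had counts of 210, 203.6 and 206.9 after siCARLo-5 and 361.7, 348.3 and 364.2 after siCARLo-7 v2 (1.73-fold, log2 0.79, SE 0.07, edgeR adjusted p 3.5e-06), a held gene. SFN, the other epithelial marker, was given above. TWIST1, the mesenchymal marker on the panel, lay under background in all 6 libraries.

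**Figure D3:**
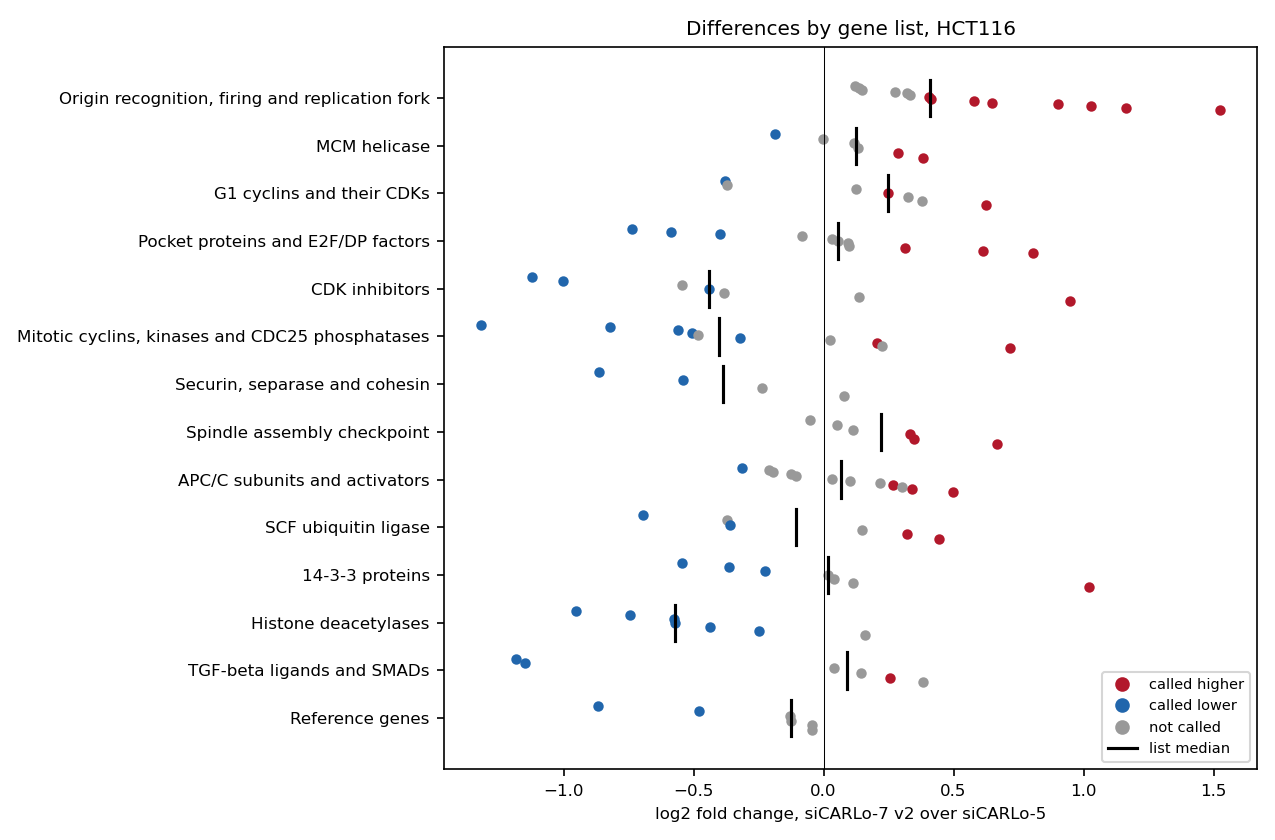
Log2 fold change of siCARLo-7 v2 over siCARLo-5 (horizontal axis) for each tested gene of 14 gene lists, with 1 point per gene coloured by its call and a bar at the list median. The replication list has 8 genes called higher and 0 lower with a median of 0.41, and the histone deacetylases 6 lower and 0 higher with a median of -0.57. The lists were written with earlier results of these data known.

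A ratio of the counts of 2 genes within 1 library does not depend on how libraries are scaled. Such ratios were formed for 6 pairs chosen after the values were seen, so they are descriptions with no test, and the absolute ratio has no meaning because probes differ in efficiency. MDM2 over CDKN1A was 3.93-fold higher after siCARLo-7 v2. The log2 ratios were -1.28, -1.22 and -1.20 in the siCARLo-5 libraries and 0.81, 0.70 and 0.70 in the siCARLo-7 v2 libraries. CDK1 over CCNB1 was 2.42-fold higher, CCNE1 over CCNB2 2.73-fold, HDAC2 over HDAC1 2.16-fold and CDKN2B over CDKN2D 4.22-fold. POLE2 over CDC25C was 7.07-fold higher. In each of the 6 pairs the groups did not overlap, so within each pair the 2 genes differed unequally between the groups whatever the scaling.

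**Figure D4:**
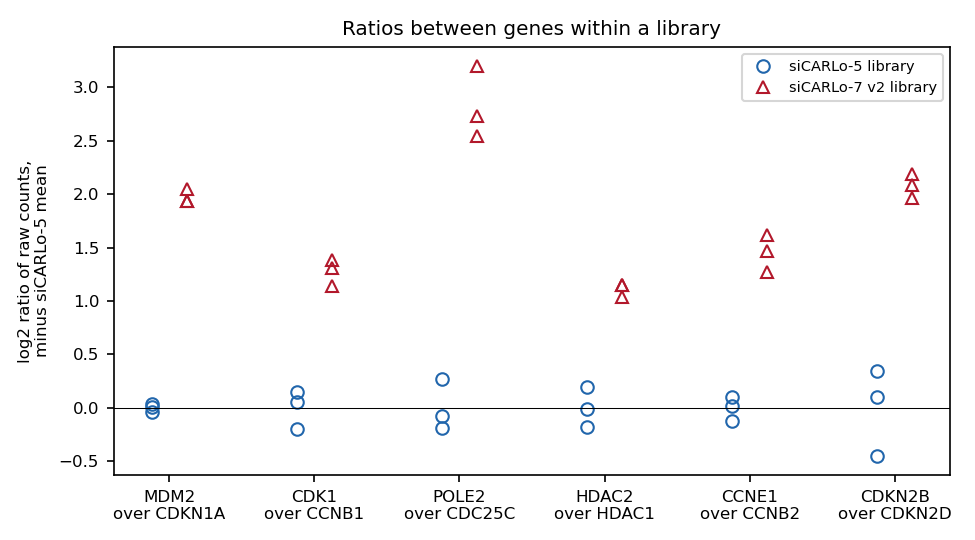
Log2 ratio of the raw counts of 2 genes in each library, minus the mean of the siCARLo-5 libraries, for 6 gene pairs, with siCARLo-5 libraries as circles and siCARLo-7 v2 libraries as triangles. The triangles lie above the circles in every pair, by 1.11 for HDAC2 over HDAC1 and by 2.82 for POLE2 over CDC25C on average.

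The control siRNA libraries took no part in the tests, and their levels are given for orientation after joint scaling of 18 HCT116 libraries. CDKN1A averaged 317 ± 21.5 (SD, n = 3) with the control siRNA, 901 after siCARLo-5 and 469 after siCARLo-7 v2. MDM2 averaged 545 ± 11.2 (SD, n = 3), 383 and 783, and CDC6 577 ± 35.8 (SD, n = 3), 315 and 671 in the same order. For these last genes the control lay between the groups. CDK1 averaged 1563 ± 130 (SD, n = 3), 864 and 1479, with siCARLo-7 v2 the nearer to the control. SFN averaged 577 ± 32.8 (SD, n = 3), 1197 and 2533, with both groups above the control.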

How the data were processed

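Deposited group tables hold raw counts of nCounter barcodes per probe, as the authors deposited them, with 6 positive and 8 negative control probes. A score per probe fills the authors' series-wide table, in which positive control sums are equal across the 6 libraries, as after scaling to those controls, and it served as an alternative. The sources used here do not give image counting, instrument runs or siRNA sequences. Probe names come from the deposited tables; 178 of 189 accessions matched the human RefSeq gene table, 176 of them under the same symbol, and 0 columns of no library were present.

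Genes entered the test when they exceeded the negative probe mean plus 2 SD in at least 3 of the 6 libraries. Libraries were scaled by TMM over endogenous genes and tested with edgeR 4.0.16 (quasi-likelihood F test, R 4.3.3) on the 6 libraries with no covariate. Benjamini-Hochberg adjustment ran over 174 genes, and called means an adjusted p under 0.05. Normalized counts are counts set to the mean effective library size. limma 3.58.1 with a pseudocount of 1 and DESeq2 1.42.0 served as alternatives. Python 3.11.15 drew the figures. The genes, lists and scalings were chosen with earlier results of these data known. Named genes were the 12 called genes with the highest and the 12 with the lowest log2 fold change, the 4 smallest p of each list and fixed regulators; other list members are named to account for their list. Some genes and the list summaries that need them are not reported here.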

Additional observations from a re-analysis of the deposited data

How the results depend on the processing

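Between 80 and 121 genes were called under the 20 alternatives, against 92, but the direction of the calls moved with the scaling. With the positive control sum, the 6 reference genes and the authors' series-wide table (limma), 104, 93 and 102 genes were called higher and 15, 24 and 18 lower. With 2 scalings chosen after the data were seen, 76 genes were higher and 34 lower for the reference genes without GAPDH, and 110 higher and 11 lower for the geometric mean of positive probes A to D, where 84 were called by at least 1.5-fold. The share of higher genes among the calls was 87.4%, 79.5%, 85%, 69.1% and 90.9% in that order, and 34.4% with upper-quartile scaling. Dropping each replicate in turn left 40 to 45 genes higher and 40 to 50 lower. Same-numbered libraries correlated at 0.0298, 0.245 and 0.12 in their deviations from the group means, and not every library correlated best with its own number, so the numbers were not taken as pairing the samples; a fit with the replicate number as a block called 102 genes, 54 higher and 48 lower. Filters on low counts, DESeq2, limma and subtraction of negative probes kept the counts of calls within 1.5 times, and 38 of the 45 higher and 41 of the 47 lower genes kept their call with DESeq2.

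Log2 fold changes turned from negative to positive in 41, 40 and 49 genes with the positive control sum, the series-wide table and positive probes A to D, and in 27 with the 6 reference genes; with upper-quartile scaling 29 turned negative. Among genes named by the rule and called on at least one of the scalings compared, the turned values for the first 3 in that order were CDK4 (0.028, 0.033, 0.13), CLTC (0.28, 0.28, 0.38), FZR1 (0.091, 0.089, 0.19), MCM3 (0.22, 0.22, 0.32), MYC (0.34, 0.34, 0.44), PLK1 (0.086, 0.086, 0.19), RBX1 (0.046, 0.045, 0.15), TUBB (0.28, 0.28, 0.38), YWHAE (0.042, 0.043, 0.14) and YWHAQ (0.18, 0.18, 0.28). By the same criterion MCM3, MYC, TUBB and YWHAQ were at 0.096, 0.21, 0.15 and 0.054 with the 6 reference genes, and CDKN1C, PGK1 and RELA at 0.064, 0.027 and 0.37 with positive probes A to D. The cause was not tested. Genes under about 26 normalized counts, such as DTX4, TGFB3 and MYT1, lie near background, and 3 libraries a group limit the precision.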
